A study of Danio rerio with 6 samples.

Results

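A set of 9 genes that mark motor neurons or their transmitter was followed in whole zebrafish (Danio rerio) embryos: the LIM-homeodomain genes isl1, isl2a, isl2b and lhx3, the Mnx homeodomain genes mnx1, mnx2a and mnx2b, and the cholinergic genes chata and slc18a3a. They are the rows of the deposited gene count table that carry these symbols, 9 of the 32057 genes listed. The symbols of 8 matched exactly, and lhx3 matched the entry written LHX3 (ENSDARG00000003803). All 9 passed the filter on low counts.

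The libraries were poly-A RNA sequencing of single embryos at 30 hours post fertilisation (hpf). Of these, 3 were labelled 3etv, which the series describes as triple mutants of the Pea3 group, and 3 were labelled wild type (WT). Pea3 factors are ETS transcription factors that act downstream of fibroblast growth factor signalling. The labels name neither the mutated genes nor the alleles, the strain, the sex or the clutch, and they do not say whether mutants and wild types were siblings. The embryos of each group are numbered 1, 2 and 3 here in the order of their label numbers. Both groups carry the same label numbers, which were not taken to pair embryos across groups.

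Motor neurons of the spinal cord arise from progenitors that express olig2 and Nkx6 factors, and they switch on Islet, Lhx3/4 and Mnx homeodomain factors as they leave the cell cycle. These factors act together on motor neuron genes, among them those for acetylcholine synthesis and its loading into vesicles. None is restricted to motor neurons: Islet genes are also active in Rohon-Beard and trigeminal sensory neurons, lhx3 in V2a interneurons and the pituitary, and mnx1 in the pancreas. In mouse, Pea3 factors are known for their part in the identity of motor neuron pools that supply particular muscles.

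Totals of counts in genes ran from 17570505 to 19600706 in 3etv libraries and from 21516892 to 25512862 in WT libraries, so every mutant library was the shallower. Of the Pea3 genes, etv5b was at 29.5 ± 1.82 CPM (counts scaled to a common library size with TMM factors) in 3etv and 74.7 ± 1.81 CPM in WT (SD, n = 3 each; edgeR adjusted p = 1.27e-06). The genes etv5a and etv4 also fell, with log2 fold changes of -1.01 and -0.48 (edgeR adjusted p = 1.82e-05 and 0.00923), while etv1 was not called at 0.28 (edgeR adjusted p = 0.191). Over all 19889 genes tested, edgeR called 26.0% at a Benjamini-Hochberg adjusted p under 0.05, with 12.6% higher and 13.5% lower in 3etv. The share of calls that were higher was 48.3%, and 34.2% when libraries were scaled by their totals alone.

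Most of the motor neuron and cholinergic genes did not pass the test. Of the 9, 2 were called, isl1 and mnx2b, both higher in 3etv, against the 12.6% of all tested genes that were called higher; edgeR called 0 lower, against 13.5%. No member reached an unadjusted p under 0.05 in the lower direction, and neither the DESeq2 Wald test nor limma-voom called one lower. Log2 fold changes of 3etv over WT, from edgeR, ran from -0.37 to 0.55 with a median of 0.17, beside a median of -0.0068 for all tested genes. The CPM ranges of 3etv and WT did not overlap for 4 members, 3 higher and 1 lower in 3etv, against 42.9% of all tested genes (21.7% higher and 21.2% lower). In whole embryos, a different number of cells of a type and a different amount of RNA per cell cannot be told apart.

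**Figure D1:**
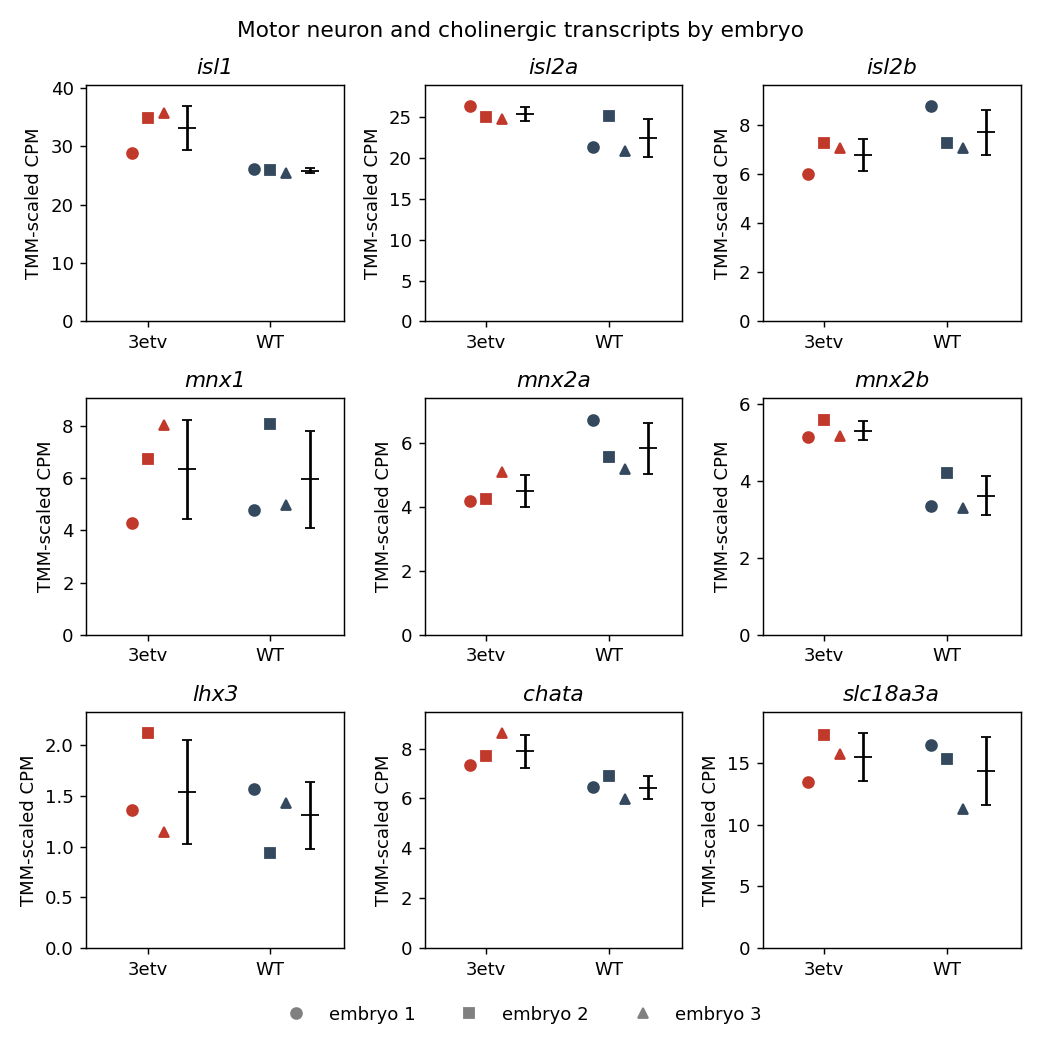
TMM-scaled CPM of each of the 9 genes on the vertical axis, in 3etv embryos on the left and WT embryos on the right. Symbols are single embryos, and the bars beside them are the mean ± SD over 3 embryos. The groups do not overlap for isl1, mnx2b and chata, which were higher in 3etv, nor for mnx2a, which was lower, while those of the other 5 genes overlap.

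The LIM-homeodomain gene isl1 (ENSDARG00000004023), an early factor of postmitotic motor neurons, was at 28.9, 34.8 and 35.6 CPM in 3etv embryos 1, 2 and 3, against 26.1, 26.0 and 25.4 CPM in WT embryos 1, 2 and 3. Every mutant lay above every wild type, and the mutants were the more spread out. The means were 33.1 ± 3.69 CPM in 3etv and 25.8 ± 0.417 CPM in WT (SD, n = 3 each), 1.28-fold higher in 3etv (log2 fold change 0.36 ± 0.10, SE; edgeR adjusted p = 0.0232). The call was lost without 3etv embryo 2 (edgeR adjusted p = 0.0830), without 3etv embryo 3 (0.0849), without WT embryo 3 (0.0754) and when only library totals set the scale (0.0566). The log2 fold change in those fits was 0.33, 0.31, 0.34 and 0.28, beside the 0.36 given above. A second Islet-1 entry, isl1l (ENSDARG00000021055), held from 0 to 2 counts per library.

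The related genes isl2a and isl2b, which are active in motor neuron subtypes and in primary sensory neurons, were not called. For isl2a (ENSDARG00000003971) the 3etv embryos held 26.4, 25.0 and 24.8 CPM, and the WT embryos 21.4, 25.2 and 20.9 CPM. WT embryo 2 reached the mutant range and the other 2 wild types lay below it (log2 fold change 0.17, 95% interval -0.054 to 0.40; edgeR adjusted p = 0.244). For isl2b (ENSDARG00000053499) the 3etv embryos held 6.01, 7.25 and 7.04 CPM, and the WT embryos 8.74, 7.27 and 7.05 CPM. The groups overlapped, with 3etv embryo 2 between WT embryos 2 and 3 and WT embryo 1 above the rest. The log2 fold change was -0.18 (95% interval -0.53 to 0.16; edgeR adjusted p = 0.418).

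The gene lhx3 (ENSDARG00000003803), which with Islet factors sets motor neuron as against V2a interneuron identity, was the lowest in counts. It held 27, 36 and 21 counts in the 3etv libraries and 34, 24 and 33 in the WT libraries. The groups overlapped throughout, at 1.54 ± 0.512 CPM in 3etv and 1.31 ± 0.332 CPM in WT (SD, n = 3 each). Its log2 fold change of 0.24 had a 95% interval from -0.48 to 0.95 (edgeR adjusted p = 0.636), which is wide enough to hold a change of the size seen in isl1 in either direction.

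Of the 3 Mnx genes, which encode homeodomain factors that hold motor neurons to their fate, 1 was called. This gene, mnx2b (ENSDARG00000030350), was at 5.15, 5.60 and 5.18 CPM in 3etv embryos and 3.36, 4.20 and 3.29 CPM in WT embryos. All mutants lay above all wild types, and the means of 5.31 ± 0.250 CPM in 3etv and 3.62 ± 0.507 CPM in WT (SD, n = 3 each) differed 1.46-fold (log2 fold change 0.55 ± 0.18, SE; edgeR adjusted p = 0.0406). This call sat close to the threshold. It was lost without any one of 5 embryos, namely 3etv 1 (edgeR adjusted p = 0.0631), 3etv 2 (0.111), 3etv 3 (0.0718), WT 1 (0.10) and WT 3 (0.124). It was also lost with library totals (0.0736), with the DESeq2 Wald test (adjusted p = 0.0623) and with the label number as a block (0.0546). In these 8 fits its log2 fold change stayed between 0.48 and 0.58, beside the 0.55 given above, so the call was lost while the difference kept its size.

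Its paralogue mnx2a (ENSDARG00000042106) was at 4.19, 4.24 and 5.07 CPM in 3etv embryos and 6.72, 5.56 and 5.19 CPM in WT embryos. The mutants all lay below the wild types, by a narrow margin between 3etv embryo 3 and WT embryo 3. The difference did not pass the test, with a log2 fold change of -0.37 (95% interval -0.76 to 0.018; edgeR adjusted p = 0.145). For mnx1 (ENSDARG00000035984), the founding member of the family, the 3etv embryos held 4.29, 6.72 and 8.02 CPM and the WT embryos 4.79, 8.09 and 4.98 CPM. Both groups spanned nearly the same range, and the log2 fold change of 0.082 had a 95% interval from -0.46 to 0.63 (edgeR adjusted p = 0.840).

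**Figure D2:**
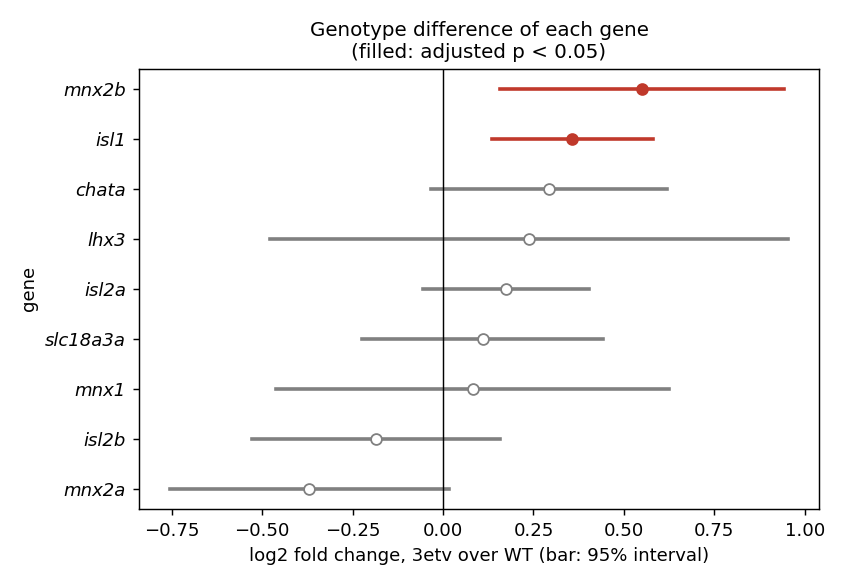
Log2 fold change of 3etv over WT for each gene (points) with its 95% interval (bars), from edgeR over 3 embryos per group; filled red points have an adjusted p under 0.05. Only mnx2b at 0.55 and isl1 at 0.36 are filled, and mnx2a at -0.37 lies at the other end.

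Because mnx2a and mnx2b stood at opposite ends, their balance was compared as a ratio of counts within each library, which no scaling factor affects. The mnx2a count was 0.814, 0.758 and 0.979 times the mnx2b count in 3etv embryos, against 2.0, 1.32 and 1.58 times in WT embryos. Each mutant thus held fewer mnx2a than mnx2b counts, and each wild type more. Raw counts were not corrected for transcript length, so they do not show which of these transcripts was the more abundant. Only the shift between the groups can be read. The ratio averaged 0.850 ± 0.115 in 3etv and 1.63 ± 0.341 in WT (SD, n = 3 each), a log2 difference of -0.93. An exact two-sided permutation test gave p = 0.1, the smallest that 3 against 3 allows, and 0.3 after adjustment over the 6 ratios computed, all of which were chosen after the values were seen. The groups already lay apart for mnx2a and, in the opposite direction, for mnx2b. Their ratio therefore had to separate too, and its test adds nothing to the results of the single genes.

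Within the Islet genes, isl2b was at 0.208, 0.208 and 0.198 times the isl1 count in 3etv embryos, against 0.335, 0.280 and 0.278 times in WT embryos. The groups did not overlap, and the log2 difference was -0.54 (exact two-sided permutation p = 0.1, adjusted 0.3). The ratios of isl2b to isl2a, isl2a to isl1, mnx2a to mnx1 and slc18a3a to chata overlapped between the groups, with exact permutation p-values from 0.2 to 0.3. These ratios are descriptions of pairs picked for their values. With 3 against 3 the smallest possible p is 0.1, so none could pass at 0.05, and the test decides nothing.

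**Figure D3:**
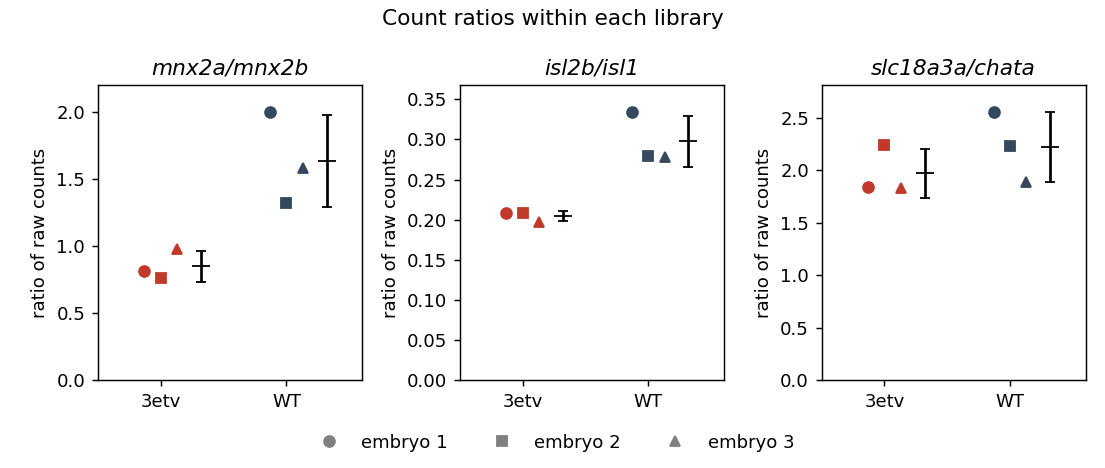
Ratio of raw counts of 2 genes within each library, in 3etv embryos on the left and WT embryos on the right. Symbols are single embryos, and bars are the mean ± SD over 3 embryos. The mnx2a to mnx2b and isl2b to isl1 ratios are lower in 3etv without overlap, and the slc18a3a to chata ratios overlap.

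The genes of the transmitter itself were not called. The choline acetyltransferase gene chata (ENSDARG00000015854), whose enzyme makes acetylcholine, was at 7.32, 7.72 and 8.62 CPM in 3etv embryos and 6.44, 6.88 and 5.97 CPM in WT embryos. All mutants lay above all wild types, but the log2 fold change of 0.29 (95% interval -0.033 to 0.62) did not pass the test (edgeR adjusted p = 0.170). The gene slc18a3a (ENSDARG00000006356), which encodes a vesicular acetylcholine transporter, was at 13.5, 17.3 and 15.8 CPM in 3etv embryos and 16.5, 15.4 and 11.3 CPM in WT embryos. The groups overlapped broadly, with a log2 fold change of 0.11 (95% interval -0.22 to 0.44; edgeR adjusted p = 0.640). In the RefSeq annotation of assembly GRCz12tu these genes lie next to each other with 0 annotated genes between them, and a long non-coding RNA gene overlaps chata. This overlap is of whole gene spans, on another assembly than the build GRCz11 that the submitters name. Without a stated strand setting, whether the counts of chata include reads of that RNA is not known and was not tested.

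Of the other genes for synthesis, transport and breakdown of acetylcholine, 5 were found in the table and 4 were tested. edgeR called 0 of them in either direction, 2 had an unadjusted p under 0.05, and neither the DESeq2 Wald test nor limma-voom called any; without WT embryo 2, edgeR called 1 higher. Of 16 neuronal nicotinic and muscarinic receptor genes, 11 were tested and 0 were called by any of the 3 tools, with 0 at an unadjusted p under 0.05. For comparison with both lists, edgeR called 26.0% of all tested genes in either direction. Picked with its values known, the high-affinity choline transporter gene slc5a7a stood at 12.3 ± 0.927 CPM in 3etv and 9.51 ± 1.80 CPM in WT (SD, n = 3 each; edgeR adjusted p = 0.0952).

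A list of 10 genes, made around the motor neuron progenitor domain, also held genes of neighbouring domains and of neurogenesis. Of these 10, 6 rose and 0 fell in 3etv embryos. Among all tested genes the shares were 12.6% and 13.5%. Like all lists here, this list was chosen with earlier results of these data known. Its counts beside those shares are therefore a description and not a test. The median log2 fold change of the list was 0.37. No gene of the list was lower at an unadjusted p under 0.05 or by the other 2 tools. These genes are not specific to motor neurons or to the progenitors that form them. The neurogenic bHLH gene neurod4 was at 119 ± 8.65 CPM in 3etv and 76.1 ± 9.93 CPM in WT (edgeR adjusted p = 0.000919). The paired-box gene pax6a, active over much of the neural tube and the eye, was at 160 ± 2.34 CPM in 3etv and 109 ± 10.5 CPM in WT (edgeR adjusted p = 0.00103), and its paralogue pax6b was at 85.5 ± 4.98 and 62.0 ± 5.18 CPM in those groups (edgeR adjusted p = 0.00334). The defining progenitor gene olig2 is outside the naming rule and was picked with its values known. It stood at 25.2 ± 3.79 CPM in 3etv and 19.7 ± 2.51 CPM in WT and was not called (edgeR adjusted p = 0.0639). Without 3etv embryo 3 the count of raised genes was 3.

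A list of 19 other motor neuron factors and surface receptors was split, with 3 of 18 tested genes higher, 3 lower and a median of -0.044. Among all tested genes 12.6% were higher and 13.5% lower. The gene phox2a, a homeodomain factor of cranial motor and noradrenergic neurons, was at 28.1 ± 2.51 CPM in 3etv and 11.1 ± 0.474 CPM in WT (SD, n = 3 each), a log2 fold change of 1.34 ± 0.11 (SE; edgeR adjusted p = 7.54e-06). That exceeded the change of any of the 9 motor neuron and cholinergic genes. The semaphorin co-receptor gene nrp1a fell by 0.52 and the axonal adhesion gene cntn2 by 0.66 on the log2 scale (edgeR adjusted p = 0.00286 and 0.00418). Without 3etv embryo 3 or WT embryo 3 the count of raised genes was 1. The close relative of lhx3, lhx4, was likewise picked with its values known and stood at 14.2 ± 1.30 CPM in 3etv and 14.3 ± 1.75 CPM in WT (edgeR adjusted p = 0.945).

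Of 11 genes of the neuromuscular junction, most of them of the muscle side, where acetylcholine is received, 6 fell and 0 rose in 3etv. Among all tested genes 13.5% were called lower and 12.6% higher. As this list too was chosen with earlier results known, the comparison is a description. The median log2 fold change of the list was -0.53. No gene of it was raised at an unadjusted p under 0.05 or by the other 2 tools. The acetylcholine receptor subunit genes chrnd, chrna1 and chrne were at 30.1 ± 4.94, 53.4 ± 6.54 and 43.4 ± 9.13 CPM in 3etv, against 47.0 ± 5.46, 76.5 ± 5.70 and 73.0 ± 12.4 CPM in WT (SD, n = 3 each). Their log2 fold changes were -0.64, -0.52 and -0.75 (edgeR adjusted p = 0.00296, 0.00332 and 0.00338). Genes of fast skeletal muscle, in which such receptors lie, moved both ways: of 12, 3 rose and 3 fell, beside those same shares of all tested genes. The parvalbumin gene pvalb1 was higher by 0.56, while the calcium pump gene atp2a1 fell by 0.62 and the creatine kinase gene ckmb by 0.45 on the log2 scale (edgeR adjusted p = 0.00338, 0.00340 and 0.0135). The summed level of the muscle list was 14569 to 17742 CPM in 3etv and 17074 to 19285 CPM in WT, and its part in the receptor result was not tested. Among the muscle markers, 1 rose without 3etv embryo 2 or 3, and 1 fell without 3etv embryo 1 or 3.

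**Figure D4:**
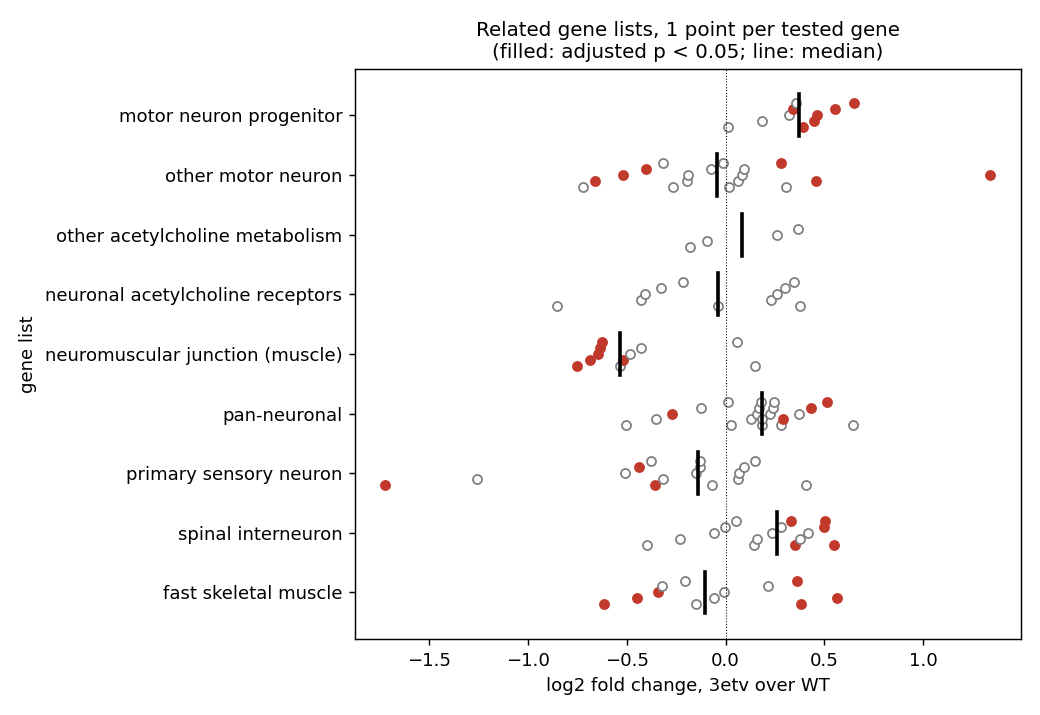
Log2 fold change of 3etv over WT (horizontal axis) for the tested genes of 9 lists, 1 point per gene; filled points have an edgeR adjusted p under 0.05, and black lines are medians. The progenitor list lies at or above 0 with a median of 0.37, and the neuromuscular junction list lies mostly below it with a median of -0.53. No gene of either acetylcholine list is filled.

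Markers of neurons in general and of other cells that share the motor neuron factors were examined beside these results. Of 21 pan-neuronal entries, 3 rose and 1 fell, beside 12.6% and 13.5% of all tested genes. The median of these entries was 0.18, about the median of the 9 genes. Their summed level was 1679 to 1900 CPM in 3etv and 1472 to 1743 CPM in WT. The synaptic genes syt1a and snap25a and the RNA-binding protein gene elavl4 were higher by 0.51, 0.43 and 0.29 on the log2 scale (edgeR adjusted p = 0.00286, 0.00732 and 0.0351). The count of lowered pan-neuronal genes was 0 without any one of 3etv 2, 3etv 3, WT 1 and WT 2.

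Of 16 primary sensory neuron markers, 0 rose and 3 fell, beside 12.6% and 13.5% of all tested genes, with a median of -0.14. No gene of the list was raised at an unadjusted p under 0.05 or by the other 2 tools. The sodium channel gene scn8aa fell by 0.36 and the neurotrophin receptor gene ntrk2a by 0.44 on the log2 scale (edgeR adjusted p = 0.0210 and 0.0489). The summed level was 157 to 174 CPM in 3etv and 175 to 184 CPM in WT. The count of lowered genes was 1 without 3etv embryo 3 and 0 without WT embryo 1.

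Among spinal interneuron markers, 5 of 16 tested entries were higher and 0 lower in 3etv, beside 12.6% and 13.5% of all tested genes. The median was 0.26. In the lower direction 1 entry had an unadjusted p under 0.05, and the other 2 tools called none lower. The factor genes dmrt3a and lbx1b were higher by 0.50 and 0.55 (edgeR adjusted p = 0.0302 and 0.0304). The summed level was 303.1 to 320.0 CPM in 3etv and 247 to 266 CPM in WT, and 1 evx1 entry held 0 counts in every library. With the label number as a block 2 of these genes were higher. Without one embryo the count was 2 for 3etv 2, 1 for 3etv 3, 3 for WT 1 and 1 for WT 3. Of 12 pancreatic and pituitary markers, 8 were tested and 0 were called by any of the 3 tools, with 0 at an unadjusted p under 0.05. Over all tested genes, edgeR called 26.0%. The summed level of these markers was 49.8 to 54.8 CPM in 3etv and 45.8 to 54.2 CPM in WT. The part of these cell types in the levels of isl1, isl2a, isl2b, lhx3 and mnx1 was not tested.

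The transcript whose pattern was nearest to that of isl1, among 13046 other named genes averaging 50 or more counts per library, was ndufa5, a subunit of mitochondrial complex I. Its centred log2 CPM differed from that of isl1 by a root mean square of 0.0323 over the 6 libraries. For mnx2b the nearest was commd1, with a root mean square difference of 0.0404. With 6 libraries in 2 groups, such likeness is a description of these libraries alone.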

How the data were processed

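The authors deposited 1 table of raw counts per Ensembl gene for 6 libraries of single embryos, 3 labelled 3etv and 3 labelled WT. The libraries were poly-A selected and strand-specific, per the labels' protocols. STAR, HTSeq and the build GRCz11 are named, with no role, in the submitters' processing notes; the annotation release and strand setting are not given in the sources used here, so counts of overlapping and antisense genes are uncertain. The table's header has a space for a tab between 2 column names, and columns were matched to samples by those names. Lines that name no gene were left out: 53.6 to 55.4% of each library's entries lay in no gene, 5.14 to 6.50% had several alignments and 0.347 to 0.387% were ambiguous.

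Counts were tested as deposited in R 4.3.3 with edgeR 4.0.16: filterByExpr, TMM factors, the quasi-likelihood test on genotype alone, and Benjamini-Hochberg adjustment over all 19889 tested genes, called under 0.05. SE is the size of the log2 fold change over root F, and the 95% intervals use it with the test's degrees of freedom. A floor of 3 counts corresponds to 0.118 to 0.171 CPM per library and, like all depth limits here, covers counting error only. Pairs of libraries within a group differed by more than sampling noise (chi-square per degree of freedom from 6.32 to 49.0). P-values measure spread between embryos, not between families. The running number in the labels lists WT first and 3etv next, so a batch in that order and genotype cannot be told apart.

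The 9 genes and all lists were chosen with earlier results of these data known. Named from each list were the 3 called genes with the lowest adjusted p, except that 2 of these genes are not reported here; other list genes are marked as named after their values were seen. List symbols were matched ignoring case, which brought in LRP4 beside exact matches. Alternatives were other scalings and filters, DESeq2 1.42.0, limma-voom (limma 3.58.1), robust dispersion, the label number as a block, and each embryo left out. The tests were checked on simulated counts. No sequences were used.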

Additional observations from a re-analysis of the deposited data

How the results depend on the processing

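Of 125 alternative values for the 9 genes, 108 kept direction and call, 12 lost the call (4 for isl1 and 8 for mnx2b, given above) and 5 changed sign, all in genes that were not called: with an embryo left out, mnx1 ran from -0.12 to 0.37 (below 0 without 3etv 3, WT 1 or WT 3), lhx3 from -0.041 to 0.42 (below 0 without 3etv 2) and slc18a3a from -0.039 to 0.21 (below 0 without WT 3). A minimum mean of 50 counts removed lhx3. The count of members called higher, 2, was 0 with library totals, 1 with the DESeq2 Wald test and 1 with the replicate block, and ran from 0 to 2 with an embryo left out. The cause was not tested.

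With library totals 2 pan-neuronal genes were lower and 2 interneuron genes higher. That scaling also called 4 progenitor genes higher in place of 6, and 2 other motor neuron genes higher in place of 3. It called 7 neuromuscular junction genes lower in place of 6. With DESeq2 0 pan-neuronal genes were lower. With a minimum mean of 50 counts 1 sensory gene was lower, since fewer genes were tested. With the block 2 interneuron genes were higher. With an embryo left out, the genes called higher ran from 1643 to 2266 over all genes, 3 to 6 for progenitors, 1 to 4 for other motor neuron genes, 0 to 1 for acetylcholine metabolism, 1 to 4 for interneurons and 1 to 3 for muscle. Genes called lower ran from 0 to 1 for pan-neuronal, 0 to 2 for sensory and 1 to 4 for muscle.

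The shared label numbers gave no sign of pairing: deviations of same-numbered embryos from their group means correlated at -0.0694, 0.0856 and -0.111 across genes. With the replicate block 4723 genes were called, 4559 of them among the 5178 called without it. The fewest counts were those of lhx3, at 21 to 36 per library; how far depth limits its interval was not tested.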
